A study of Mus musculus with 6 samples.

Results

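The immunoglobulin Fc receptor genes were followed in infarcted mouse hearts with and without the TSLP receptor. They comprised 9 genes chosen by name, *Fcgr1*, *Fcgr3*, *Fcgr4*, *Fcer1g*, *Fcgr2b*, *Fcgrt*, *Pigr*, *Fcer2a* and *Fcmr*, and each matched 1 row among the 54532 genes of the deposited table. The series holds 3 wild-type (WT) and 3 *Crlf2-/-* mice, each giving 1 bulk RNA library from the infarct and its border, taken 7 days after the left anterior descending artery had been tied off. *Crlf2* encodes TSLPR, the chain that binds TSLP, and *Crlf2-/-* mice lack it in every cell type. The strain is C57BL/6 in the labels and C57BL/6J in the study's methods. The WT mice were young adult males, and WT and *Crlf2-/-* mice came from different suppliers, so that supplier and genotype cannot be told apart. The groups thus shared the ligation and the day, no sham-operated heart was analysed here, and the question was how the loss of TSLP signaling altered gene expression in the infarct.

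Fc receptors bind the constant part of antibodies and link them to cells. Mouse IgG is bound by the activating receptors FcγRI (*Fcgr1*), FcγRIII (*Fcgr3*) and FcγRIV (*Fcgr4*), which signal through the shared ITAM-bearing γ chain (*Fcer1g*), and by FcγRIIB (*Fcgr2b*), whose ITIM recruits phosphatases and restrains the same cells. FcRn (*Fcgrt*) carries IgG and albumin through endosomes and protects them from degradation, the polymeric immunoglobulin receptor (*Pigr*) moves IgA and IgM across epithelia, and CD23 (*Fcer2a*) and the IgM Fc receptor (*Fcmr*) bind IgE and IgM, mainly on B cells. In the infarcted heart, macrophages are a known site of FcγR expression.

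The libraries held 18508646 to 19682428 fragments on listed genes. Values are FPKM as deposited, a count of fragments that is set against the gene's length and the library's size. The targeted gene *Crlf2* had 26.6, 25.1 and 21.6 FPKM in WT and 13.2, 18.7 and 19.8 FPKM in *Crlf2-/-* libraries, lower in each but not absent (log2 fold change -0.52, adjusted p = 0.521 from limma). Among all tested genes, 6.45% were likewise lower in *Crlf2-/-* hearts with no overlap between the groups. A gene-level value cannot tell which part of the transcript remained. Cardiac tissue was recognizable in each library, with the cardiac actin gene *Actc1* between 479.0 and 1399.0 FPKM, although the extraction label names another tissue. The 9 cardiomyocyte markers summed to 1047.4 to 1981.0 FPKM in WT and 694.6 to 1360.0 FPKM in *Crlf2-/-* libraries, and the 18 monocyte and macrophage markers to 3317.3 to 5641.9 FPKM in WT and 3841.4 to 4627.4 FPKM in *Crlf2-/-* libraries. In bulk tissue, fewer cells of a type and less RNA per cell cannot be told apart.

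*Fcgr2b*, *Fcgr4*, *Fcgr3* and *Fcer1g* lie together within 275.749 kb of chromosome 1 (170958617 to 171234365), *Pigr* and *Fcmr* are neighbors on the same chromosome (130826684 to 130880791), and *Fcgr1*, *Fcgrt* and *Fcer2a* lie on chromosomes 3, 7 and 8. The positions in the table were those of GENCODE M21 (GRCm38) for all 9 genes. The promoters of the 4 Fcγ receptor genes are shown because the results below turn on the balance between these genes. Each runs from 250 bases before to 50 bases after the RefSeq start site (GRCm38.p6), 5′ to 3′ along the gene. Capitals mark matches to 3 motifs searched on both strands: the interferon-γ activated site TTCNNNGAA, the interferon-stimulated response element GAAANNGAAA and the core of the myeloid PU.1 site GAGGAA. Windows are chr3:96293920-96294219 (minus strand) for *Fcgr1*, chr1:171018676-171018975 (plus strand) for *Fcgr4*, chr1:171059345-171059644 (minus strand) for *Fcgr3* and chr1:170976022-170976321 (minus strand) for *Fcgr2b*.
Fcgr1: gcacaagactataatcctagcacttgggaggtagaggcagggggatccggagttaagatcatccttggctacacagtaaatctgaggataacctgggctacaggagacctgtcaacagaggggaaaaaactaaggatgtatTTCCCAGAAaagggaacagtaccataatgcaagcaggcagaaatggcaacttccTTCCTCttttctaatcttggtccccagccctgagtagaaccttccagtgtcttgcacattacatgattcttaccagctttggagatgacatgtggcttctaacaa
Fcgr4: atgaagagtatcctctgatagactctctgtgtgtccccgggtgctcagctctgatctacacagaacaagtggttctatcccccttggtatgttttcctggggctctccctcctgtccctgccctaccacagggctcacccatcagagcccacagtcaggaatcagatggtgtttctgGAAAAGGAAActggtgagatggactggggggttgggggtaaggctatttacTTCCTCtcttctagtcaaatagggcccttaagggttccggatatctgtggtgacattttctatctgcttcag
Fcgr3: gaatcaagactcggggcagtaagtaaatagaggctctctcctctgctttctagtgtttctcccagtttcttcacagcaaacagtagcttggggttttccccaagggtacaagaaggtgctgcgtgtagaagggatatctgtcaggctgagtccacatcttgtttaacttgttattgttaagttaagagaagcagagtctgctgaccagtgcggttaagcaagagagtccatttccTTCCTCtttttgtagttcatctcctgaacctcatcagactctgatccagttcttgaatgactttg
Fcgr2b: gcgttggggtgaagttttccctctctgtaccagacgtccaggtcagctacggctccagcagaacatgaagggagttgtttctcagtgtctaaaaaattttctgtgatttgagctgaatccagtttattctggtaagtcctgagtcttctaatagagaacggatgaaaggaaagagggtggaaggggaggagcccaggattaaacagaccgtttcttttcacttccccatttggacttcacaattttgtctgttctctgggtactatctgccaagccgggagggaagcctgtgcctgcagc

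The *Fcgr1* window held TTCCCAGAA, which reads as an interferon-γ activated site on either strand, with its first base at -109, and the reverse of the PU.1 core at -55. The *Fcgr4* window held GAAAAGGAAA at -73 and the reverse of the PU.1 core at -22. The *Fcgr3* window held only the reverse of the PU.1 core, at -15, or at -6 when counted from the other RefSeq start site of this gene, and the *Fcgr2b* window held none of the 3 letter patterns. No match overlapped a match to another motif. Among the members whose windows are not shown, *Pigr*, which had 1 fragment in all, held a match to the interferon-γ activated site, TTCCTGGAA, at 40. *Fcmr* held the reverse of the PU.1 core at -36. Of 32851 RefSeq promoters of this length, 8.3% held the first motif, 3.44% the second and 28.3% the third. A match is a description of letters and not of binding.

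*Fcer1g* was the most abundant of the 9 genes. Its level was 215.3, 159.9 and 145.1 FPKM in WT and 176.7, 183.2 and 148.5 FPKM in *Crlf2-/-* hearts. *Fcgr3* followed, with means of 96.5 ± 20 FPKM for WT and 90.4 ± 12 FPKM for *Crlf2-/-* hearts, ahead of *Fcgrt* with 68.3 ± 3.01 and 62.2 ± 6.46 FPKM (SD, n = 3 each). *Fcgr4*, *Fcgr1* and *Fcgr2b* formed the next tier, between 18.5 and 45.8 FPKM in all 6 libraries. In WT hearts the ranges of *Fcgr4* and *Fcgr1* overlapped, although *Fcgr4* was the higher in 3 of 3 libraries. The ranges of *Fcgr1* and *Fcgr2b* overlapped too, with *Fcgr1* higher in 2 of 3 libraries, so that this order was not apart from the spread. In *Crlf2-/-* hearts *Fcgr4* and *Fcgr1* still overlapped, with *Fcgr4* higher in 2 of 3 libraries, while every *Fcgr1* value (29.8 to 45.7 FPKM) lay above every *Fcgr2b* value (19.3 to 28.6 FPKM). *Fcmr* and *Fcer2a* were below 1 FPKM throughout, and *Pigr* had 1 fragment in WT replicate 1 and 0 fragments in the other 5 libraries. A count of 0 allows up to 3 fragments, which for *Pigr* is 0.0319 to 0.0344 FPKM, counting error only.

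**Figure D1:**
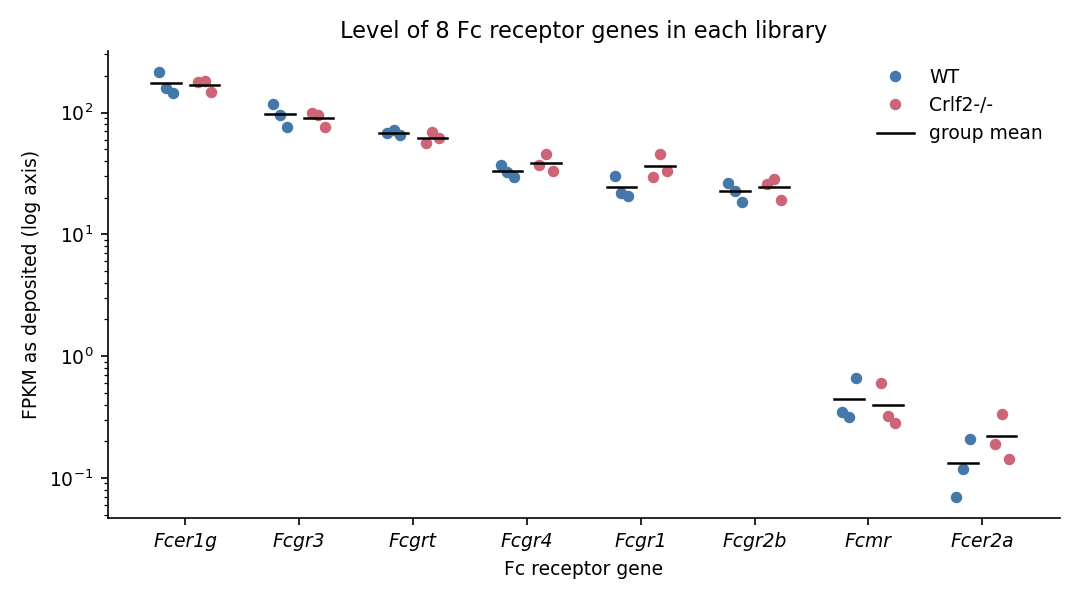
Level of 8 Fc receptor genes in FPKM as deposited, on a log axis, with 1 point per library (WT blue, Crlf2-/- red) and a bar at each group mean of 3 libraries; *Pigr* is left out because 5 of its 6 values are 0. The 6 genes at the left lie between 18.5 and 215.3 FPKM, the 2 at the right below 1 FPKM, and the groups overlap for every gene shown.

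None of the Fc receptor genes was called different between *Crlf2-/-* and WT hearts. Of the 9 genes, 8 passed the filter on low values, and 0 of these met the call rule, an adjusted p of at most 0.05 and a log2 fold change of 0.5 or more in either direction. The p came from limma, adjusted by Benjamini-Hochberg over 15520 genes, of which 2, or 0.0129%, were called. At an unadjusted p under 0.05 there was 1 gene, *Fcgr1*, in limma and also with voom on the recovered fragments (where 0 were called too), and 6.58% of all tested genes reached this level. WT and *Crlf2-/-* values overlapped for each of the 8 genes, while 11.7% of all tested genes had no overlap. The median log2 fold change over the 8 tested genes was 0.0568, beside -0.0042 over all tested genes, and 4 of the 8 were above 0, as were 49.1% of all tested genes. Log2 fold changes were taken after adding 0.1 to each FPKM, so those of low genes are understated. The study, with DESeq2 at the same thresholds, reported far more genes as different between the groups. The absence of a call here therefore does not exclude a difference.

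Among the activating receptors, the difference was greatest for *Fcgr1*, which encodes the high-affinity IgG receptor of monocytes and macrophages. Its level was 30.3, 22 and 20.5 FPKM in the 3 WT libraries and 29.8, 45.7 and 33.3 FPKM in the 3 *Crlf2-/-* libraries. WT replicate 1 lay just above *Crlf2-/-* replicate 1, and the other *Crlf2-/-* libraries lay above all WT libraries. The log2 fold change was 0.58 (standard error 0.20, 95% interval 0.12 to 1.04, unadjusted p = 0.0193, adjusted p = 0.581 from limma). With each library left out in turn it ranged from 0.41, without *Crlf2-/-* replicate 2, to 0.75, without WT replicate 1. Its unadjusted p was above 0.05 when WT replicate 2, WT replicate 3 or *Crlf2-/-* replicate 2 was left out, at 0.0632, 0.0669 and 0.0612 (limma).

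*Fcgr4*, which binds the IgG2 subclasses, had 37.2, 32.7 and 29.4 FPKM in WT and 37.2, 45.8 and 33.2 FPKM in *Crlf2-/-* libraries. The groups overlapped, with *Crlf2-/-* replicate 2 the highest of the 6 libraries, and the log2 fold change was 0.23 (95% interval -0.11 to 0.56, adjusted p = 0.916 from limma). *Fcgr3*, the low-affinity activating receptor also found on NK cells, had 116.8, 96 and 76.8 FPKM in WT and 98.7, 95.8 and 76.7 FPKM in *Crlf2-/-* libraries. These sets of values nearly coincided, except for the highest WT library, and the log2 fold change was -0.079 (95% interval -0.49 to 0.33, adjusted p = 0.996 from limma). For *Fcer1g*, the signaling chain of all 3 receptors, the log2 fold change was -0.015 (95% interval -0.41 to 0.38, adjusted p = 0.996 from limma). These intervals do not exclude differences of the size seen for *Fcgr4*.

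The inhibitory receptor gene *Fcgr2b* had 26.4, 22.6 and 18.5 FPKM in WT and 26, 28.6 and 19.3 FPKM in *Crlf2-/-* libraries. The groups overlapped and the log2 fold change was 0.13 (95% interval -0.29 to 0.54, adjusted p = 0.995 from limma). *Fcgr3* and *Fcgr2b* have closely related extracellular domains. Of the distinct 50-base stretches in annotated *Fcgr3* transcripts, 9.58% also occurred in *Fcgr2b* transcripts, and 2.54% of the 100-base stretches did, so that the authors' counting could have left out or misplaced a small part of their fragments. *Fcgr4* shared 0 such stretches with either gene. Antisense genes overlap *Fcgr2b* (*Gm38204*, 0 to 2 fragments per library) and *Fcgrt* (*Gm45669*, 0 fragments in all 6 libraries), and without strand such fragments could not be told apart from those of the receptor genes.

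The IgG transport receptor gene *Fcgrt* had 67.6, 71.6 and 65.8 FPKM in WT and 56.1, 68.9 and 61.6 FPKM in *Crlf2-/-* libraries. Of the *Crlf2-/-* libraries, 2 lay below all WT libraries, and the log2 fold change was -0.14 (95% interval -0.40 to 0.13, adjusted p = 0.953 from limma). FcRn works as a dimer with β2-microglobulin. The level of *B2m* was 1652.3, 1560.1 and 1547.7 FPKM in WT and 1897.2, 1991.4 and 1745.5 FPKM in *Crlf2-/-* libraries, each *Crlf2-/-* library above each WT library, as for 5.24% of all tested genes, with a log2 fold change of 0.25 (adjusted p = 0.845 from limma). Of the 7 genes listed with FcRn (light chain, albumin and endosomal sorting), 0 had an unadjusted p under 0.05 in limma (0 with voom). Of the 7, 5 were above 0, beside 49.1% of all tested genes. *Pigr*, with its single fragment, was not tested. The epithelial and mesothelial markers, among which *Pigr* would be sought, summed to 13 to 33.4 FPKM in WT and 13.8 to 35.9 FPKM in *Crlf2-/-* libraries.

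The lymphocyte receptor genes rested on few fragments. For *Fcer2a* the WT libraries held 5, 8 and 14 fragments and the *Crlf2-/-* libraries 13, 24 and 10, which gave 0.132 ± 0.0693 and 0.222 ± 0.0987 FPKM (SD, n = 3 each) and a log2 fold change of 0.47 (95% interval -0.25 to 1.2, adjusted p = 0.922 from limma), or of 0.77 with voom. For *Fcmr* these numbers were 14, 12 and 25 in WT and 23, 13 and 11 without TSLPR, with a log2 fold change of -0.12 (95% interval -0.87 to 0.64, adjusted p = 0.996 from limma). The groups overlapped for both genes, and differences smaller than these wide intervals were not detectable at this depth. The 11 B cell markers summed to 12.3 to 15 FPKM in WT and 11.7 to 17.1 FPKM in *Crlf2-/-* libraries. *Cd79b*, a chain of the B cell receptor, had 3.85, 4.61 and 3.68 FPKM in WT and 4.85, 2.82 and 3.19 FPKM in *Crlf2-/-* libraries.

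**Figure D2:**
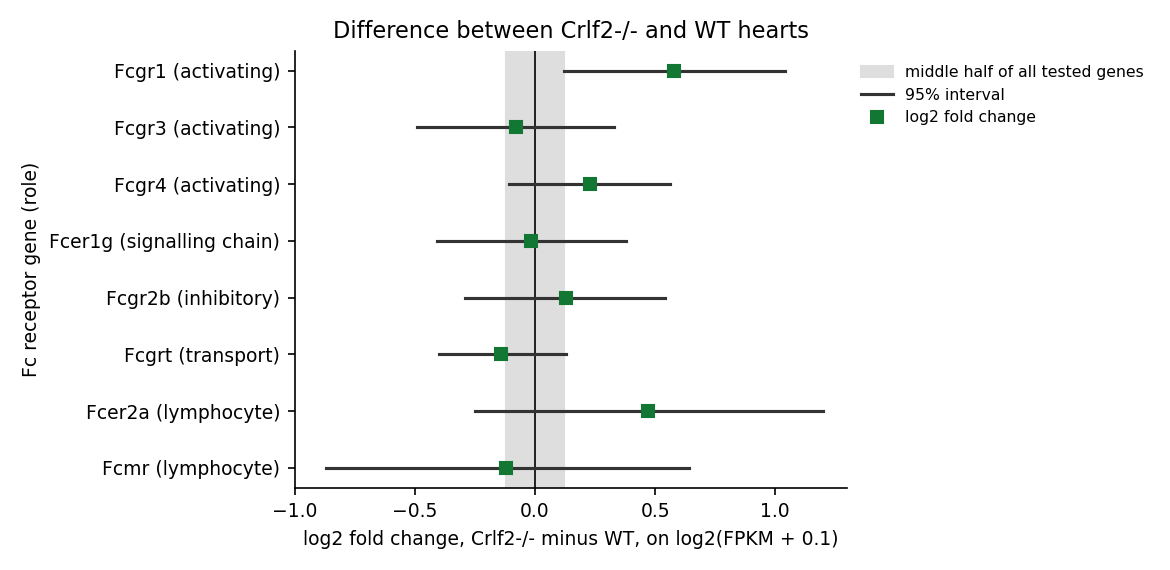
Log2 fold change between Crlf2-/- and WT hearts (x axis, on log2(FPKM + 0.1), positive when higher in Crlf2-/-) for the 8 tested Fc receptor genes, with the 95% interval from limma, n = 3 per group; the gray band is the middle of all tested genes from the lower to the upper quartile, -0.1194 to 0.1188. The interval of *Fcgr1* lies above 0, from 0.12 to 1.04, before adjustment for all genes, and the other 7 intervals include 0.

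Activating receptors were next compared with the inhibitory and the transport receptor inside each library, where scaling between libraries plays no part. The summed FPKM of the 3 activating genes was 6.98, 6.65 and 6.85 times that of *Fcgr2b* in WT and 6.38, 6.56 and 7.41 times in *Crlf2-/-* libraries, and these values overlapped. The makeup of the activating side differed more. *Fcgr1* made up 14.4%, 12.7% and 14.1% of the FPKM summed over the 4 Fcγ receptor genes in WT, and 15.5%, 21.2% and 20.5% in *Crlf2-/-* libraries. *Fcgr3* made up 55.4%, 55.4% and 52.9% in WT, and 51.5%, 44.4% and 47.2% in *Crlf2-/-* libraries. Every *Crlf2-/-* library thus had a greater share of *Fcgr1* and a smaller share of *Fcgr3* than every WT library, although the levels of both genes overlapped between the groups. Such shares were not computed for other genes. In FPKM itself, 5.24% of all tested genes were higher and 6.45% lower in *Crlf2-/-* hearts with no overlap. The 4 shares add up to the whole, so a greater share of 1 gene lowers those of the others, and these separations are not independent of each other. The share of *Fcgr2b* was 12.8% ± 0.27 in WT and 12.9% ± 0.876 in *Crlf2-/-* libraries (SD, n = 3 each), and that of *Fcgr4* was 18.9% ± 1.3 and 20.4% ± 0.893 (SD, n = 3 each).

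**Figure D3:**
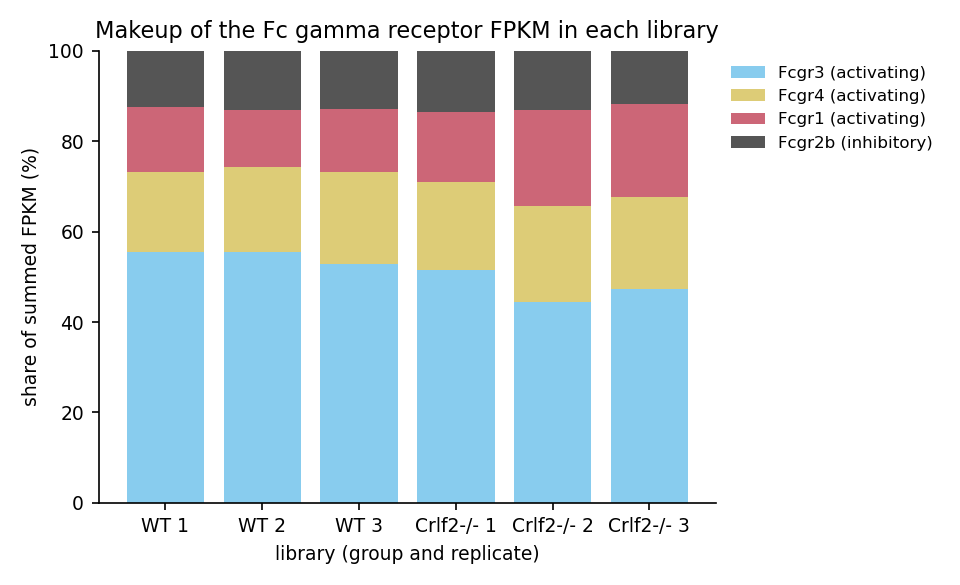
Share of each Fcγ receptor gene (y axis, % of the FPKM summed over *Fcgr1*, *Fcgr2b*, *Fcgr3* and *Fcgr4*) in each of the 6 libraries (x axis). *Fcgr3* takes 52.9% to 55.4% in WT and 44.4% to 51.5% in Crlf2-/- libraries, and *Fcgr1* takes 12.7% to 14.4% in WT and 15.5% to 21.2% in Crlf2-/- libraries.

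Single genes were then set against each other, in 15 ratios among the 6 abundant genes. Of these, 8 set an activating receptor or the γ chain against *Fcgr2b* or *Fcgrt*, and the remaining 7 were added after the values had been seen. With 3 libraries against 3, the exact permutation test cannot go below p = 0.1, and the smallest p adjusted over the 15 ratios was 0.3, so that no ratio could pass 0.05. Libraries of the groups were fully separated in 2 of the 8 ratios and in 5 of the 15. The ratios share genes, and 3 of the 5 separated ones held *Fcgr1*, so that these separations are not independent of each other. In FPKM itself, 11.7% of all tested genes were separated in either direction, and the shares for each denominator are given below.

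*Fcgr3* was 4.42, 4.24 and 4.16 times *Fcgr2b* in WT and 3.8, 3.35 and 3.97 times in *Crlf2-/-* libraries. Each *Crlf2-/-* library was below each WT library, a log2 difference of -0.21 (exact permutation test, two-sided, p = 0.1, adjusted p = 0.3). Among all tested genes, 3.29% were likewise lower relative to *Fcgr2b* with no overlap. This share and those given below for other denominators count only the direction seen for the receptor gene, whereas the test is two-sided. *Fcgr1* was 1.15, 0.972 and 1.11 times *Fcgr2b* in WT and 1.15, 1.6 and 1.72 times in *Crlf2-/-* libraries. Replicate 1 of *Crlf2-/-* was within the WT range there, and the log2 difference was 0.45 (exact permutation test, two-sided, p = 0.2, adjusted p = 0.3). *Fcgr4* was 1.48 ± 0.0963 times *Fcgr2b* in WT and 1.59 ± 0.143 times in *Crlf2-/-* libraries, and *Fcer1g* was 7.69 ± 0.565 and 6.97 ± 0.65 times *Fcgr2b* (SD, n = 3 each), with overlap in each case.

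Relative to the transport receptor gene *Fcgrt*, *Fcgr1* stood at 0.447, 0.307 and 0.311 in WT and at 0.531, 0.663 and 0.54 in *Crlf2-/-* libraries. These groups did not overlap, with a log2 difference of 0.72 (exact permutation test, two-sided, p = 0.1, adjusted p = 0.3). For 12.4% of all tested genes the ratio to *Fcgrt* was higher in *Crlf2-/-* hearts with no overlap, so that such a separation was common with this denominator. *Fcgr3* relative to *Fcgrt* was 1.41 ± 0.286 in WT and 1.47 ± 0.266 in *Crlf2-/-* libraries, and *Fcgr4* relative to *Fcgrt* was 0.484 ± 0.0568 and 0.622 ± 0.0717 (SD, n = 3 each). Each of these overlapped.

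Of the ratios added later, *Fcgr1* relative to its signaling chain *Fcer1g* was the most even within WT, at 0.141, 0.138 and 0.141. It was 0.168, 0.25 and 0.224 without TSLPR, a log2 difference of 0.59 that ranged from 0.47 to 0.76 with single libraries left out. *Fcgr4* relative to *Fcer1g* was 0.173, 0.204 and 0.203 in WT and 0.211, 0.25 and 0.224 without TSLPR, a log2 difference of 0.24. *Fcgr1* relative to *Fcgr3* was 0.259, 0.229 and 0.266 in WT and 0.301, 0.477 and 0.434 without TSLPR, a log2 difference of 0.66. In each of these ratios all *Crlf2-/-* libraries were above all WT libraries (p = 0.1 and adjusted p = 0.3 each, two-sided exact permutation test). Separation in this direction was seen for 2.76% of all tested genes relative to *Fcer1g* and for 3.47% relative to *Fcgr3*. *Fcgr3* relative to *Fcer1g*, at 0.557 ± 0.0377 in WT and 0.533 ± 0.0228 in *Crlf2-/-* libraries (SD, n = 3 each), overlapped.

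**Figure D4:**
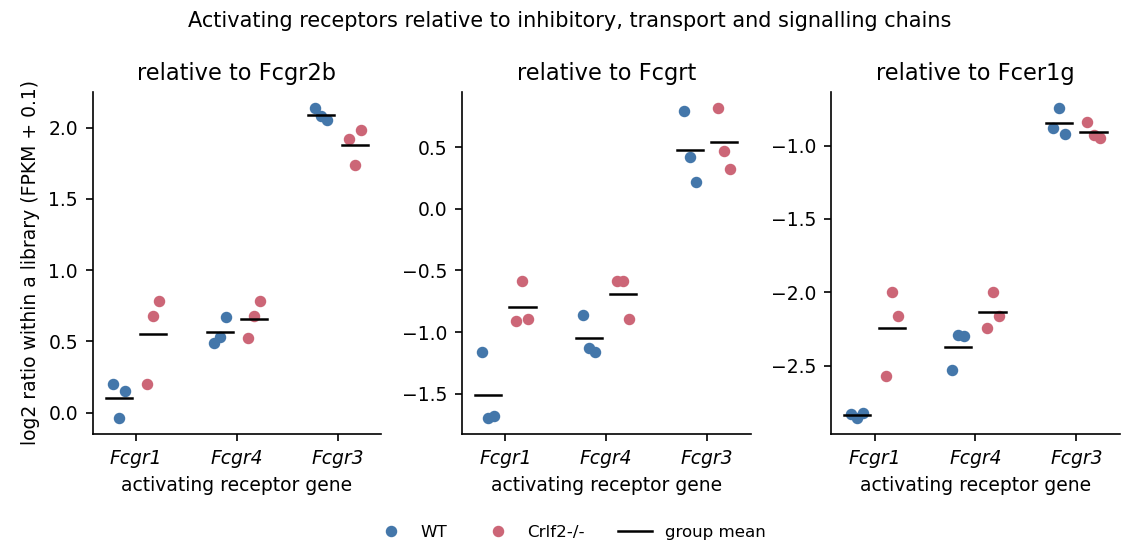
Log2 ratio of *Fcgr1*, *Fcgr4* and *Fcgr3* to *Fcgr2b*, *Fcgrt* and *Fcer1g* within each library (y axes, on FPKM + 0.1, each panel with its own range), with 1 point per library and a bar at each group mean of 3. *Fcgr1* relative to *Fcer1g* lies at -2.86 to -2.82 in WT and at -2.57 to -2.0 in Crlf2-/- libraries, and *Fcgr3* relative to *Fcgr2b* at 2.05 to 2.14 and at 1.74 to 1.98.

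Genes on either side of the receptors were examined in lists. Of 23 kinases and effectors downstream of activating Fcγ receptors, 0 had an unadjusted p under 0.05 in limma (1 with voom). Of the 23, 10 were above 0, beside 49.1% of all tested genes, and the median log2 fold change was -0.0249. *Syk*, the kinase recruited by the phosphorylated γ chain, had 11.5, 9.41 and 9.6 FPKM in WT and 9.23, 7.77 and 7.97 FPKM in *Crlf2-/-* libraries. Each *Crlf2-/-* library was below each WT library, as for 6.45% of all tested genes, with a log2 fold change of -0.28 (unadjusted p = 0.054, adjusted p = 0.773 from limma). *Lyn*, the Src-family kinase that phosphorylates ITAM and ITIM, overlapped, with a log2 fold change of -0.066. Of 8 phosphatases and adaptors used by inhibitory receptors, 0 had an unadjusted p under 0.05 in limma (0 with voom) and the median was 0.0356. *Inpp5d*, which encodes the lipid phosphatase SHIP1 recruited by FcγRIIB, was 15, 13.8 and 14.1 FPKM in WT and 15, 13 and 13.3 FPKM in *Crlf2-/-* libraries, and *Ptpn6*, which encodes SHP-1, had a log2 fold change of 0.09.

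Of 12 other ITIM receptors of myeloid cells, 9 were above 0 with a median of 0.212, beside 49.1% of all tested genes above 0. In limma, 0 of the 12 had an unadjusted p under 0.05 (1 with voom). *Tyrobp*, the sister adaptor of *Fcer1g*, had 248.2, 180.4 and 140.8 FPKM in WT and 164.7, 166.5 and 140.2 FPKM in *Crlf2-/-* libraries (log2 fold change -0.23, adjusted p = 0.955 from limma). In its list of 16 adaptor partners, 13 were tested, 0 had an unadjusted p under 0.05 in limma (0 with voom) and the median was 0.0806. Of 11 further Fc receptor and Fc receptor-like genes, 6 were tested, again with 0 at that level (0 with voom) and a median of 0.0712. *Fcrls*, an Fc receptor-like gene of macrophages, was abundant, with 85.7 ± 20.3 FPKM for WT and 88.9 ± 11.7 FPKM for *Crlf2-/-* hearts (SD, n = 3 each). The chains that join *Fcer1g* in the high-affinity IgE receptor were near 0, with *Fcer1a* at 2, 1 and 9 fragments in the WT libraries and at 0, 1 and 0 in the *Crlf2-/-* ones, and *Ms4a2* at 0 fragments in 5 libraries and 7 in *Crlf2-/-* replicate 2.

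Immunoglobulin transcripts, from which the ligands of these receptors are made, were read in the same way. The list held 10 genes, the heavy constant genes with *Igkc* and *Jchain*. Of these 8 were tested, 6 had an unadjusted p under 0.05 and all 6 were lower in *Crlf2-/-* hearts, where 3.36% of all genes were lower at this level. The median log2 fold change was -3.34, and *Ighg2b* was the 1 gene called (log2 fold change -3.42, adjusted p = 0.00856 from limma). Its adjusted p rose above 0.05 without WT replicate 1 (0.0561), WT replicate 2 (0.0757) or *Crlf2-/-* replicate 3 (0.118, limma each), at log2 fold changes of -3.41, -3.46 and -3.34, and it was not tested when every library had to hold 10 fragments. *Ighg2c*, an IgG2 subclass bound by FcγRI and FcγRIV, had 7.5, 8.74 and 2.1 FPKM in WT and 0.17, 0.0323 and 0.268 FPKM in *Crlf2-/-* libraries (log2 fold change -4.48, adjusted p = 0.0778 from limma). *Ighg3* had 0.242, 0.643 and 0.601 FPKM in WT and 0.108, 0.0341 and 0.124 FPKM in *Crlf2-/-* libraries. *Ighm*, the ligand of the IgM receptor, overlapped, at 22.6, 143.6 and 139.9 FPKM in WT and 37.7, 20.8 and 21 FPKM in *Crlf2-/-* libraries. *Ighe* was at 0 in all 6 libraries. Immunoglobulin genes share sequence, so that fragments may have been split between them.

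*Fcgr1* is known as an interferon-induced gene, and a list of 17 interferon-induced genes was read beside it. Of these, 11 had an unadjusted p under 0.05 and were higher in *Crlf2-/-* hearts, where 3.22% of all genes were, and the median log2 fold change was 0.515. In limma 0 of the 17 were called (11 had an unadjusted p under 0.05 with voom too), and 10 were higher with no overlap between the groups, as were 5.24% of all tested genes. Set against the mean of WT, the list median was 0.0115, -0.262 and 0.178 in WT replicates 1, 2 and 3 and 0.429, 0.611 and 0.702 in *Crlf2-/-* replicates 1, 2 and 3, on the log2 scale. *Irf7*, a factor of the type I response, had 16, 12.2 and 18.6 FPKM in WT and 25.5, 53.9 and 46.7 FPKM in *Crlf2-/-* libraries. *Irf1* (log2 fold change 0.071) and *Gbp2* (0.083), which are also induced by interferon-γ, overlapped between the groups. Like *Fcgr1*, *Irf7* was lowest among *Crlf2-/-* libraries in replicate 1 and highest in replicate 2, whereas the list median was highest in replicate 3. Among WT libraries *Irf7* was highest in replicate 3, where *Fcgr1* was lowest, at 20.5 FPKM. The part of interferon signaling in the *Fcgr1* values was not tested.

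Of the 18 monocyte and macrophage markers, 15 were above 0 with a median of 0.0973, beside 49.1% of all tested genes above 0. Of these markers, 1 had an unadjusted p under 0.05 and was higher, as were 3.22% of all tested genes. That gene was *Ly6c2*, a marker of inflammatory monocytes, at 4.11, 5.14 and 4.31 FPKM in WT and 5.18, 8.04 and 7.16 FPKM in *Crlf2-/-* libraries (log2 fold change 0.57, adjusted p = 0.483 from limma). *Mertk*, a receptor of resident macrophages that clears dying cells, had 16.5, 11.5 and 11.9 FPKM in WT and 11.2, 11 and 10 FPKM in *Crlf2-/-* libraries, and each *Crlf2-/-* library was below each WT library, as for 6.45% of all tested genes. *Ly6c2* and *Csf1r*, the receptor gene for macrophage growth factor, were higher with no overlap, as were 5.24% of all tested genes, with *Csf1r* at 79.1 ± 2.81 FPKM in WT and 86.8 ± 2.39 FPKM in *Crlf2-/-* hearts (SD, n = 3 each). WT replicate 1 had the highest sum of macrophage markers, 5641.9 FPKM, of which *Lyz2* alone gave 2574.9 FPKM. It also had the highest *Fcer1g*, *Fcgr3* and *Tyrobp*. In contrast, *Fcgr1*, *Fcgr4* and *Fcgr2b* were highest in *Crlf2-/-* replicate 2, and *Fcgrt* was highest in WT replicate 2. The part of macrophage content in the Fc receptor values was not tested.

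**Figure D5:**
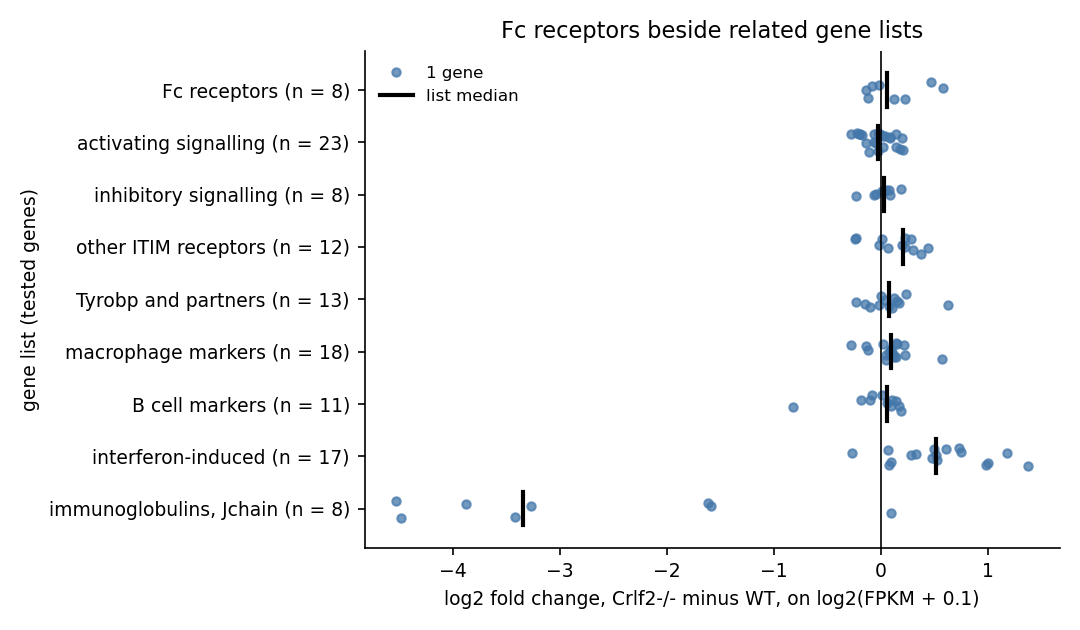
Log2 fold change between Crlf2-/- and WT hearts (x axis, on log2(FPKM + 0.1)) of each tested gene in 9 gene lists (y axis), with 1 point per gene, spread vertically for legibility, and a bar at the list median. The Fc receptor median is 0.0568, the interferon-induced median 0.515 and the immunoglobulin median -3.34.

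Genes with the pattern most like that of *Fcer1g* over the 6 libraries were *Abhd12* (Pearson's r = 0.990), *D1Ertd622e* (0.990), *Tmem173* (0.989), *Gpx1* (0.987) and *Gem* (0.985). Those most like *Fcgr2b* were *Vim* (0.994), *BC005537* (0.990), *Atp1b3* (0.988) and *Commd10* (0.987). Among the receptors, *Fcer1g* followed *Fcgr3* (0.941) and *Fcgr2b* (0.855) more closely than *Fcgr4* (0.677), *Fcgr1* (0.464) and *Fcgrt* (0.125). The points of these descriptive correlations are 6 libraries from 2 groups, and the depth and tissue composition of a library enter all of its values. The genes named were among the highest of 15520.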

How the data were processed

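Reads were trimmed by fastp, mapped by HISAT2 (2.0.5) and assigned to genes by featureCounts, and the authors deposited the result as FPKM, 1 column per library, together with gene lengths. The submitters' processing notes list mm10 and also hg38. Strand handling is not given in the sources used here. Deposited FPKM times gene length came in steps of 1 constant per library, which gave back whole fragments for 100% of nonzero values. The tolerance was 0.02 fragments plus an allowance for rounding that grew with the number of fragments and the gene length.

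A gene was tested if 3 or more libraries had 10 or more fragments and the sum was 15 or more. Tests used limma 3.58.1 in R 4.3.3 (lmFit, eBayes with trend and robust) on log2(FPKM + 0.1), after scaling by the trimmed mean of M values, with Benjamini-Hochberg adjustment. Levels and ratios use FPKM as deposited, which scaling moved by under 1%. Ratios were tested by exact permutation. Alternatives were no scaling, other pseudocounts and filters, a replicate block, voom and single libraries left out. The limma and voom tests, but not the permutation test, were checked on simulated data that gave every gene the same dispersion. Other computations used Python 3.11.15 with pandas 2.3.3, scipy 1.17.1, numpy 2.4.6 and, for plots, matplotlib 3.10.9.

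Named genes were the Fc receptor genes, *Crlf2*, *B2m*, *Tyrobp*, *Syk*, *Lyn*, *Inpp5d* and *Ptpn6*, and from each list the 3 genes with the smallest unadjusted p and, for cell type lists, the 3 with the highest level, with the 5 genes most like *Fcer1g* and *Fcgr2b*. *Fcrls*, *Fcer1a*, *Ms4a2*, *Ighg3*, *Ighm*, *Ighe*, *Irf1*, *Gbp2* and *Csf1r* lie outside that rule and were chosen after their values were seen. The members and lists were chosen with earlier results of these data known. Some genes that the rule names are not reported here. Protein sequences were not used here. The table held 0 columns of other samples. Mice were taken as replicates. The limma p-values set the group difference against the spread between these libraries, moderated across genes. The permutation p ranks the difference among relabelings of the same libraries.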

Additional observations from a re-analysis of the deposited data

How the results depend on the processing

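The number of genes called among all tested genes was 2, and it became 6 with no filter on low genes, 1 with at least 10 fragments in every library, 4 with the replicate block and 1 to 14 with single libraries left out (14 without *Crlf2-/-* replicate 1, 8 without WT replicate 3, and 1 without WT replicate 1, WT replicate 2 or *Crlf2-/-* replicate 3). The cause was not tested. The number of Fc receptor genes called was 0 in each of the 13 alternatives, and the number at an unadjusted p under 0.05 was 0 to 1 with single libraries left out. Leaving out 1 library reversed small log2 differences. *Fcgr3* ranged from -0.23 to 0.075 (above 0 without WT replicate 1, and 0.038 lacking *Crlf2-/-* replicate 3), *Fcer1g* from -0.13 to 0.16 (0.08 in that second case), *Fcgr2b* from -0.0056 to 0.30 (below 0 without WT replicate 3) and *Fcmr* from -0.38 to 0.15 (above 0 without WT replicate 3, and 0.056 lacking *Crlf2-/-* replicate 3). The log2 ratio of *Fcgr3* to *Fcgrt*, 0.058, ranged from -0.082 (lacking *Crlf2-/-* replicate 1) to 0.21, with -0.069 lacking WT replicate 3. Libraries with the same number deviated from their group means with correlations of -0.0163, 0.115 and 0.12, which did not meet the rule for pairing. With the replicate block *Fcgr1* had an adjusted p of 0.617 (limma), and over its alternatives 0.439 to 1.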

Other observations

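Other cells that can carry Fc receptors were read from marker lists. Over all tested genes, 3.36% were lower and 3.22% higher at an unadjusted p under 0.05, and 49.1% were above 0. Of 8 NK cell markers, 2 were lower at an unadjusted p under 0.05 (1 with voom, and 1 without WT replicate 1, WT replicate 3 or *Crlf2-/-* replicate 3) and 5 were above 0. *Gzma*, a granule protease of cytotoxic cells, had 3.97, 4.22 and 4.27 FPKM in WT and 2.64, 2.05 and 2.51 FPKM in *Crlf2-/-* libraries (log2 fold change -0.77, adjusted p = 0.149 from limma), while *Ncr1*, an activating receptor that signals through *Fcer1g*, had 0.62, 0.689 and 0.297 FPKM in WT and 1.43, 0.334 and 1.15 FPKM in *Crlf2-/-* libraries. Of 8 mast cell and basophil markers, 6 were tested and 1 was lower at that level, the chymase gene *Mcpt4*, at 0.431, 0.417 and 0.619 FPKM in WT and 0.203, 0.271 and 0.12 FPKM in *Crlf2-/-* libraries (adjusted p = 0.369 from limma). The mast cell count was 2 without WT replicate 2 or *Crlf2-/-* replicate 1, and 0 when every library had to hold 10 fragments, where fewer genes were tested. Of 6 tested neutrophil markers 0 had an unadjusted p under 0.05 in limma (0 with voom), and their sums were 16.5 to 28.9 FPKM in WT and 18.4 to 23.9 FPKM in *Crlf2-/-* libraries.

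Endothelium, which carries FcRn in many tissues, had marker sums of 194.3 to 211.7 FPKM in WT and 175.3 to 187.0 FPKM in *Crlf2-/-* libraries, with no overlap. Of the 10 markers taken singly, 2 were lower with no overlap, as were 6.45% of all tested genes. At an unadjusted p under 0.05, 1 of the 10, *Tek*, was lower (log2 fold change -0.32, adjusted p = 0.595 from limma). The count was 0 without WT replicate 2, WT replicate 3 or *Crlf2-/-* replicate 1, and 2 without WT replicate 1 or *Crlf2-/-* replicate 2. Of the 9 cardiomyocyte markers 0 were above 0, and 3 were lower at that level, among them the ventricular myosin light chain gene *Myl2* (log2 fold change -1.34, adjusted p = 0.391 from limma). That count of 3 became 7 with the replicate block, 6 without WT replicate 1 or *Crlf2-/-* replicate 3, and 1 without WT replicate 2, WT replicate 3 or *Crlf2-/-* replicate 2. Of 10 tested epithelial and mesothelial markers 0 had an unadjusted p under 0.05 in limma (0 with voom), and of 11 B cell markers 1 did, *Pou2af1* (log2 fold change -0.82, adjusted p = 0.673 from limma). The B cell count was 0 without WT replicate 3, *Crlf2-/-* replicate 2 or *Crlf2-/-* replicate 3, and 2 without *Crlf2-/-* replicate 1.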
